A study of Rattus norvegicus with 4 samples.

Results

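The miR-181 family was described in rat gracilis muscle, a muscle of the inner thigh, from the 4 miRNAs named rno-miR-181a, rno-miR-181b, rno-miR-181c and rno-miR-181d on the array, of 350 rat microRNAs (miRNAs) measured in all. The members were chosen by name, and the other strand of the miR-181a hairpin, miR-181a*, was kept apart. All samples came from male Sprague-Dawley rats, and muscle taken after 4 h of ischemia followed by reperfusion (2 samples) was compared with muscle of sham-operated animals (2 samples). The reperfusion time is 4 h in the sample labels and 24 h in the text of the whole series, so it is not settled. The series text calls the samples of both groups biological replicates, while the labels call those after ischemia-reperfusion experimental replicates and do not name the animals. The p-values therefore measure only the spread between these samples.

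A miRNA guides a silencing complex to messenger RNAs, mainly through pairing of its seed, the bases near its 5′ end, so miRNAs with 1 shared seed can bind overlapping sets of targets. The miR-181 family is known for raising the sensitivity of developing T cells to antigen in the mouse, and it rises and acts during the differentiation of mouse myoblasts, the precursors of muscle fibres. Members of the family also dampen inflammatory signalling in endothelial cells and act on the mitochondria of the heart.

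The mature sequences are shown because the likeness of the members bears on how their values can be read. They are from RefSeq (build GRCr8), 5′ to 3′, with the seed (bases 2 to 8) in capitals, and all 4 members were matched to the 5′ strand of their hairpin.
miR-181a: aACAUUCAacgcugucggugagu
miR-181b: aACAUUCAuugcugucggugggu
miR-181c: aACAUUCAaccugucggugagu
miR-181d: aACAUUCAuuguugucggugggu
The 4 sequences share their first 8 bases, and 0 of the other mature rat miRNAs of this RefSeq table carry the seed ACAUUCA. Counted from 1 at the 5′ end, miR-181b differs from miR-181a by A9U, C10U and A21G. Between miR-181b and miR-181d the only difference is C12U. miR-181c equals miR-181a with 1 base removed, at position 11, and is 22 bases long against 23. By sequence, then, miR-181a goes with miR-181c and miR-181b with miR-181d. The sequences of the array's probes were not used here, so the extent to which a probe also binds another member was not tested.

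By position in the genome the members pair differently. The genes of miR-181a and miR-181b lie side by side in 2 places, and those of miR-181c and miR-181d in another. On chromosome 13 the mature miR-181a (chr13:52037081-52037103) and miR-181b (chr13:52037263-52037285) start 182 bases apart, within the long non-coding RNA gene LOC108352541. On chromosome 3 the Mir181a2 hairpin (chr3:43025563-43025679) and the Mir181b2 hairpin (chr3:43026666-43026753) start 1103 bases apart, within the span of Nr6a1, a nuclear receptor gene, and of the long non-coding RNA gene LOC120101539. The mature miR-181c (chr19:40888314-40888335) and miR-181d (chr19:40888484-40888506) start 170 bases apart on chromosome 19 and overlap no other gene of the table. All of these are on the plus strand of GRCr8. Since both places give the same mature miR-181a, an array cannot tell which of them a signal came from.

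Each sample was hybridised in 1 colour (Cy3). The deposited values are background-subtracted total signals, each with the error that the scanner software assigns to it and with a detection flag. The arrays detected 121 to 187 miRNAs. For the 78 miRNAs seen on every array, the 75th percentile of the signal was 3380 units on sham 1, 1171 units on sham 2, 995 units on ischemia-reperfusion 1 and 92.0 units on ischemia-reperfusion 2, and every set of 4 values below keeps this order of arrays. Levels were compared after division by this percentile and are given as a percentage of it or as its log2. The array labelled ischemia-reperfusion 2 stood apart from the others: 0 of 5 muscle-fibre miRNAs (miR-133b, miR-1, miR-133a, miR-206 and miR-499) were detected on it, against 5 of 5 on each other array, and 6 of 7 epithelial miRNAs were detected, against 0, 0 and 2. Its label as muscle is therefore not borne out by the markers of muscle fibres, and the group comparisons below are also given without it. Precision is limited by the small number of arrays, 2 in each group.

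miR-181a, which sets the signalling threshold of T cells in the mouse, was the member whose level varied least. Its signal was 355 units on sham 1 and 199 units on sham 2, 157 units on ischemia-reperfusion 1 and 19.6 units on ischemia-reperfusion 2, with scanner errors of 28.1, 15.1, 12.0 and 2.93 units. The signal thus fell array by array with the brightness of the arrays. Relative to the 75th percentile, its level was 10.5% and 17.0% in the sham muscles and 15.8% and 21.3% after ischemia-reperfusion. The level of ischemia-reperfusion 1 lay between those of the sham muscles, so that the groups overlapped. The spread within groups was 0.41 on the log2 scale, and 12.6% of the 159 miRNAs tested had a smaller spread (median 1.05). Between the sham muscles alone miR-181b varied less, with an SD of 0.074 on the log2 scale against 0.49 for miR-181a. The ranking of the members thus depends on ischemia-reperfusion 2.

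miR-181b, which restrains inflammatory signalling in endothelium in the mouse, was after scaling level on 3 arrays and higher on the other. Its signal was 115 and 42.9 units in the sham muscles and 28.1 and 13.7 units after ischemia-reperfusion, with scanner errors of 10.6, 3.89, 3.20 and 2.77 units. After scaling these were 3.40% and 3.66% of the percentile in the sham muscles, 2.82% on ischemia-reperfusion 1 and 14.9% on ischemia-reperfusion 2. The sham muscles differed by 0.11 ± 0.19 (scanner error) on the log2 scale, while the 2 ischemia-reperfusion arrays differed from each other by 2.40 ± 0.33. The ischemia-reperfusion values lay on opposite sides of the sham values.

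miR-181c, which acts on a messenger RNA of mitochondria in rat heart cells, was detected on 3 of 4 arrays. It gave 35.9, 36.7 and 28.1 units on the arrays that detected it, with scanner errors of 6.75, 3.55 and 3.24 units. On ischemia-reperfusion 2 it gave 0.989 units with an error of 2.52 units, and 97 of the 229 miRNAs undetected there were brighter. After scaling, its level was 1.06% on sham 1, 3.13% on sham 2 and 2.82% on ischemia-reperfusion 1. The sham muscles differed from each other by 1.56 ± 0.30 (scanner error) on the log2 scale, but its signal on sham 1 lay within the range of that array's negative controls, so this difference is uncertain. On ischemia-reperfusion 2 the level is uncertain: the measured log2 value was −6.54 and the lowest detected signal of that array corresponded to −5.48. That signal is no upper bound, since undetected miRNAs of the array reached 9.15 units.

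miR-181d, which acts on a DNA repair enzyme in human glioma cells, was over all 4 arrays the most variable member after scaling. It gave 62.2 and 9.68 units in the sham muscles and 7.93 and 12.7 units after ischemia-reperfusion, with scanner errors of 7.90, 2.46, 2.54 and 2.67 units. On sham 2 and ischemia-reperfusion 1 the signal was 3.94 and 3.13 times its error, and the brightest undetected miRNA of those arrays stood at 9.11 and 9.37 units, so miR-181d was barely above or below that mark. On ischemia-reperfusion 2 it was 4.76 times its error, and the brightest undetected miRNA stood at 9.15 units. Its scaled level was 1.84%, 0.826%, 0.797% and 13.8%. Within-group spread was 2.14 on the log2 scale, and 79.9% of the tested miRNAs had a smaller spread. Between the sham muscles alone miR-181c varied more, with an SD of 1.10 on the log2 scale against 0.82 for miR-181d. The miR-181c signal of sham 1 is uncertain, as said above.

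**Figure D1:**
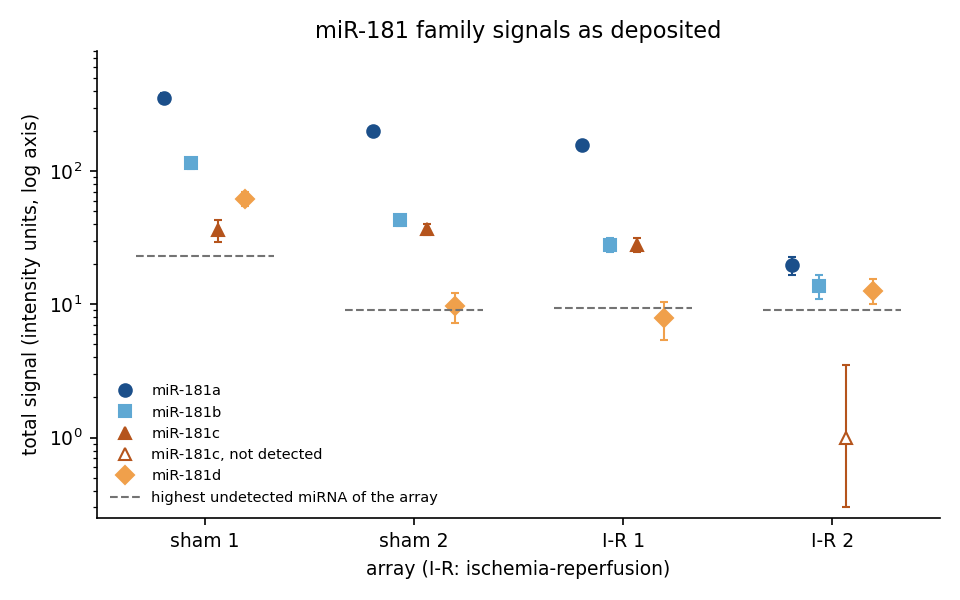
Total signal of each miR-181 member (intensity units, log axis) on the 4 arrays, with the scanner error as bars and the brightest undetected miRNA of each array as a dashed line; the lower bar of miR-181c on ischemia-reperfusion 2 is cut because its error exceeds its signal. miR-181a falls from 355 to 19.6 units, while miR-181d gives 12.7 units on the array where miR-181c is not detected.

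The background was read from 7 negative control features, none of which was flagged as detected. They lay between 15.0 and 52.2 units on sham 1, between −17.8 and 3.91 units on sham 2, between −26.0 and 3.03 units on ischemia-reperfusion 1 and between 0.607 and 6.31 units on ischemia-reperfusion 2. The miR-181c signal of sham 1 (35.9 units) lay within the range of the controls of that array, although it was flagged as detected. That of miR-181d on sham 1 (62.2 units, error 7.90 units) lay above this range, but not far from its upper end. The controls' totals carry scanner errors of 28.1 to 126 units there, so they are less precise than the members' signals. The other strand, miR-181a*, was detected on no array, at 12.8, 1.26, 0.649 and 3.46 units with errors of 6.27, 2.33, 2.46 and 2.55 units. Its name on the array gives no locus, and the hairpins on chromosomes 13 and 3 differ in this strand, shown with bases 2 to 8 in capitals:
miR-181a-1-3p: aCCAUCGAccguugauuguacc
miR-181a-2-3p: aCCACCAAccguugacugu
Neither carries the seed of the family.

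The study's question was how ischemia-reperfusion changes the miRNAs of muscle, and no member of the miR-181 family passed the test. For miR-181a, ischemia-reperfusion minus sham was 0.46 ± 0.92 on the log2 scale (SE, n = 2 in each group), with a limma adjusted p of 0.841 over the 159 miRNAs tested. It was 0.88 ± 1.17 for miR-181b (limma adjusted p = 0.817), −0.066 ± 1.11 for miR-181c (0.985) and 1.43 ± 1.62 for miR-181d (0.817). Each difference is smaller than its standard error. Limma called 0% of the tested miRNAs at an adjusted p under 0.05, and the 2 with an unadjusted p under 0.05 were not members. The groups overlapped for all 4 members. Over all tested miRNAs they did not overlap for 25.2% (11.9% with ischemia-reperfusion higher and 13.2% with it lower). With only 4 members, no difference from that share can be read.

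The values above zero for miR-181b and miR-181d came from the array labelled ischemia-reperfusion 2. Division by its low percentile (92.0 units) also puts dim signals high. The undetected miR-181a* had a log2 level of −4.73 there, against −8.04 on sham 1 and the floor of −9.32 on the other arrays. Without ischemia-reperfusion 2, ischemia-reperfusion 1 differed from the sham mean by 0.24 for miR-181a, −0.32 for miR-181b, 0.63 for miR-181c and −0.63 for miR-181d. Without ischemia-reperfusion 1 the differences were 0.67, 2.08, −0.76 and 3.49, with limma adjusted p from 0.128 (miR-181d) to 0.598 (miR-181c). On ischemia-reperfusion 2 the muscle-fibre list summed to 12.6% of the 75th percentile, against 6270% to 9655% in the sham muscles and 9115% on ischemia-reperfusion 1. The epithelial list summed to 632% there, against 0.0468% and 1.39% in the sham muscles and 35.2% on ischemia-reperfusion 1. Their part in the levels of miR-181b and miR-181d was not tested. In RNA of whole muscle, fewer cells of a type and less RNA per cell cannot be told apart.

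The sign of some of the differences also moved with the scaling, because the scaling shifts all miRNAs together. The median difference of all tested miRNAs was 0.45 with the percentile used here, −0.31 with the 75th percentile of all miRNAs, −0.095 with the median and −2.18 without scaling. Dividing an array by a number moves its miRNAs alike, so a member's place relative to that median is fixed across such scalings apart from the floor. With the percentile used here, miR-181a stood at 0.0022 relative to the median, miR-181b at 0.42, miR-181c at −0.52 and miR-181d at 0.97. Quantile normalization, which does not shift all miRNAs alike, put them at 0.026, 0.51, −1.18 and 0.90. Without ischemia-reperfusion 2 they stood at 0.18, −0.38, 0.57 and −0.68, so that the signs of miR-181b, miR-181c and miR-181d turned. None of the members passed the test under any of these settings.

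**Figure D2:**
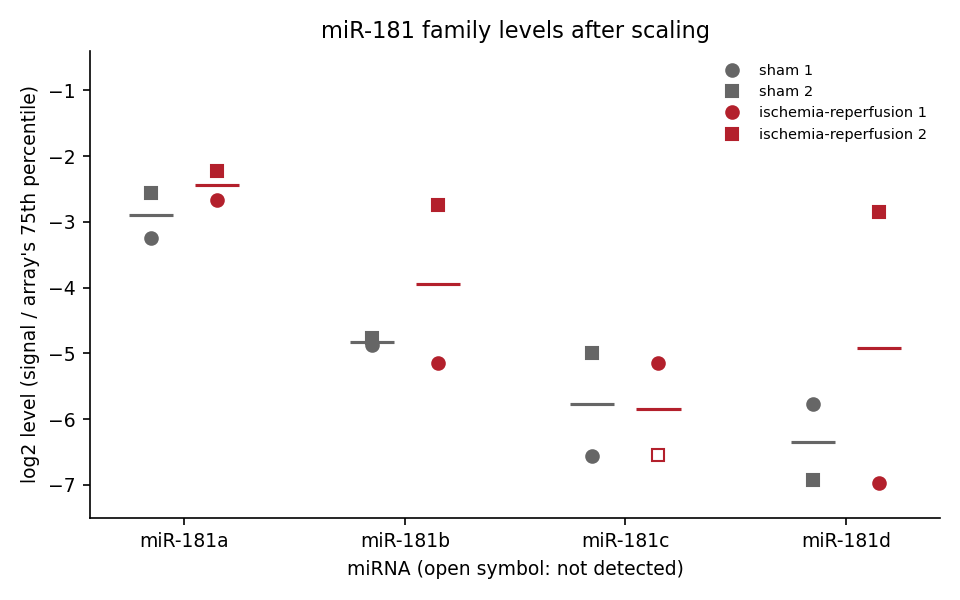
Log2 level of each miR-181 member after division by the array's 75th percentile, for 2 sham (grey) and 2 ischemia-reperfusion (red) arrays; circles are replicate 1, squares replicate 2, bars group means and the open square an undetected value. The points of the groups overlap for every member. After division by the low percentile of ischemia-reperfusion 2, miR-181b and miR-181d are high there alone (−2.75 and −2.86), from signals of 13.7 and 12.7 units.

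Ischemia-reperfusion 1 and sham 2 were alike over the whole array, and the family shared in this: over the 171 miRNAs detected on both, the log2 ratios had an SD of 0.27, against 1.33 between the sham muscles (145 miRNAs). Between them the log2 difference, ischemia-reperfusion minus sham, was −0.11 ± 0.16 (scanner error) for miR-181a, −0.38 ± 0.21 for miR-181b, −0.15 ± 0.22 for miR-181c and −0.052 ± 0.59 for miR-181d. The difference exceeded the scanner error for miR-181b only, and the median over all miRNAs detected on both arrays was −0.11. Between the sham muscles, in contrast, the difference was 0.69 ± 0.16 for miR-181a, 1.56 ± 0.30 for miR-181c and −1.15 ± 0.41 for miR-181d (sham 2 minus sham 1). These exceed the scanner error, which covers a measurement on an array and not the spread between samples, whereas the difference of miR-181b, 0.11 ± 0.19, does not. Ischemia-reperfusion 2 lay above sham 2 by 2.03 ± 0.32 for miR-181b and 4.06 ± 0.48 for miR-181d, against a median of 1.35 and an SD of 2.04 over the 94 miRNAs detected on both. The difference of miR-181b thus lay within 1 SD of that median, and that of miR-181d lay between 1 and 2 SD above it.

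The make-up of the family signal was compared between arrays. A share depends on the probes as well as on the miRNAs, so shares are compared between arrays and not between members. The summed signal was 568, 288, 221 and 47.0 units. miR-181a made up 62.5%, 69.1%, 71.0% and 41.7% of it. The share of miR-181b was 20.2%, 14.9%, 12.7% and 29.2%. miR-181c held 6.33%, 12.7%, 12.7% and 2.10%, and miR-181d held 10.9%, 3.36%, 3.59% and 27.0%. Sham 1 thus lay on the side of ischemia-reperfusion 2 for all 4 shares, and the other sham muscle lay beside ischemia-reperfusion 1. The miR-181c share of sham 1 rests on a signal within the range of the negative controls. Relative to the 75th percentile the summed signal was 16.8%, 24.6%, 22.2% and 51.1%.

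**Figure D3:**
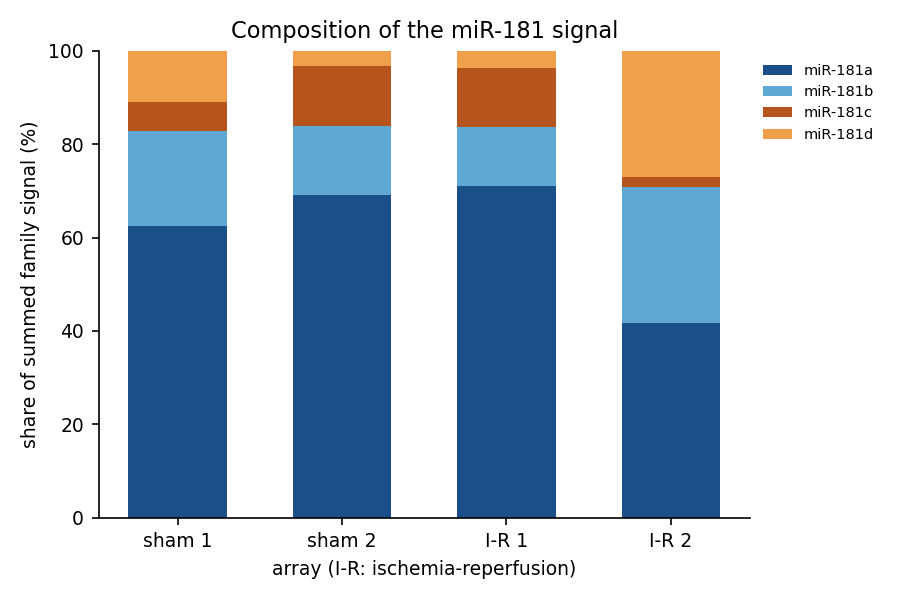
Share of the summed miR-181 signal (%) held by each member on each array; the bars are stacked to 100%. miR-181d holds 10.9% on sham 1 and 27.0% on ischemia-reperfusion 2, and 3.36% and 3.59% on the arrays between them.

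The gene clusters were compared within arrays, where the scaling cancels: the mean log2 signal of miR-181a and miR-181b minus that of miR-181c and miR-181d. This contrast was 2.10 ± 0.19 (scanner error) on sham 1, 2.29 ± 0.21 on sham 2, 2.15 ± 0.26 on ischemia-reperfusion 1 and 2.21 on ischemia-reperfusion 2. The last value rests on the undetected miR-181c. It was 1.68 with miR-181c set to the lowest detected signal of that array, called the limit below, which is not an upper bound. The value of sham 1 rests in part on miR-181c too, whose signal there lay within the range of the negative controls. The group means were 2.20 ± 0.14 (SD, n = 2) for sham and 2.18 ± 0.040 for ischemia-reperfusion, a difference of −0.014 with an exact two-sided permutation p of 1, where 2 against 2 arrays cannot give less than 0.333. With miR-181c at the limit the difference was −0.28. Without ischemia-reperfusion 2 it was −0.043. Members of the same cluster did not keep a fixed ratio: miR-181a minus miR-181b was 1.63, 2.22, 2.49 and 0.52, with scanner errors of 0.17, 0.17, 0.20 and 0.36. miR-181c minus miR-181d was −0.79, 1.92 and 1.83 on the 3 arrays that detected both. On ischemia-reperfusion 2 it is uncertain, at −2.63 with miR-181c at the limit.

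The pairing by sequence, chosen after these values were seen, spread more widely over the arrays. The mean log2 signal of miR-181a and miR-181c minus that of miR-181b and miR-181d was 0.42 ± 0.19 (scanner error) on sham 1, 2.07 ± 0.21 on sham 2, 2.16 ± 0.26 on ischemia-reperfusion 1 and −1.58 on ischemia-reperfusion 2 (−1.05 with miR-181c at the limit). Sham 1 again lay on the side of ischemia-reperfusion 2, with its miR-181c signal within the range of the negative controls. Within the sequence pairs, miR-181b minus miR-181d was 0.89, 2.15, 1.82 and 0.11. miR-181a minus miR-181c was 3.30, 2.44 and 2.48 on the arrays that detected both, and 3.25 on ischemia-reperfusion 2 with miR-181c at the limit. By group the contrast was 1.24 ± 1.17 (SD, n = 2) in sham and 0.29 ± 2.64 after ischemia-reperfusion, so the difference of −0.96 (−0.69 with miR-181c at the limit) was within the spread, and it was 0.91 without ischemia-reperfusion 2. The remaining pairing, miR-181a and miR-181d against miR-181b and miR-181c, gave 1.21, 0.15, 0.33 and 2.10. No test was made of either pairing, and the part that cross-binding of the probes has in them was not tested.

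**Figure D4:**
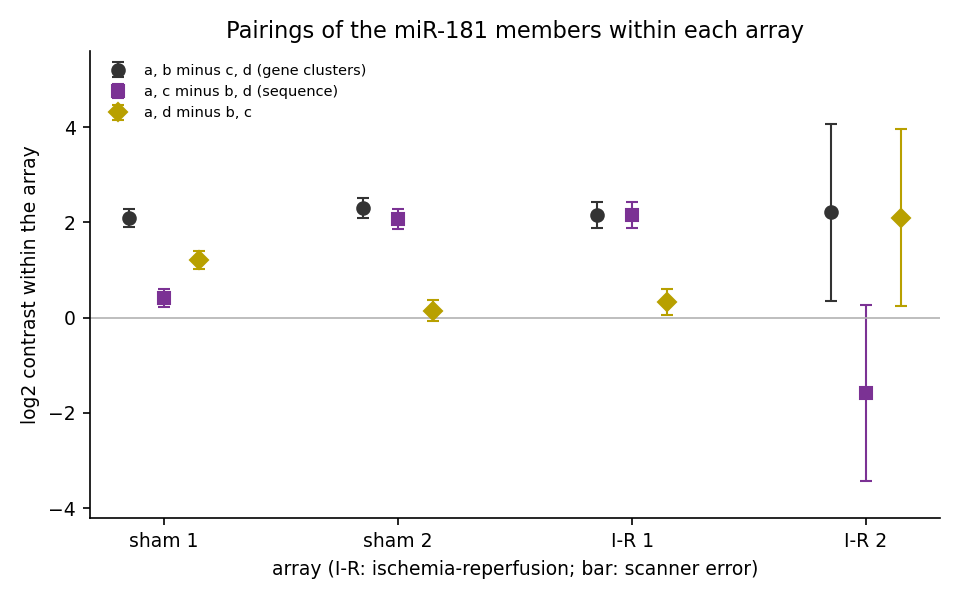
Within-array log2 contrasts for the 3 ways of pairing the miR-181 members, on the 4 arrays, with the propagated scanner error as bars; on ischemia-reperfusion 2 the bars are only rough, since miR-181c was not detected there. On the 3 arrays that detected every member, the contrast by gene cluster lies between 2.10 and 2.29 and the contrast by sequence between 0.42 and 2.16.

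The miRNAs most like each member in pattern were found among the 78 detected on all 4 arrays, which include miR-181a, miR-181b and miR-181d. Likeness was the root mean square, over the 4 arrays, of the difference between log2 levels centred on each miRNA's own mean. The 4 arrays are few, and the values share the brightness and make-up of each array. Since the nearest miRNAs were chosen from these same values, their closeness is no separate result. Nearest to miR-181a was miR-107, a miRNA encoded within a pantothenate kinase gene, at 0.023, against a median of 0.71 over the other 77 miRNAs. The log2 gap between miR-107 and miR-181a was 0.83, 0.88, 0.88 and 0.87 on the 4 arrays; its size depends on the probes, and its range is within the scanner errors of miR-181a. miR-25, of a cluster that acts in cell proliferation, followed at 0.053 and miR-347 at 0.11. miR-181b ranked number 42 and miR-181d number 70 of the 77. The sequences of miR-107 and of miR-125a-5p, the miRNA nearest to miR-181d, are shown because their seeds differ from that of the family:
miR-107: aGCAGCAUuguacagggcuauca
miR-125a-5p: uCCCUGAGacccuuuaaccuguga

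For miR-181b the nearest were miR-337, of the imprinted Dlk1-Dio3 locus, at 0.11, miR-214, a miRNA of mesenchymal cells, at 0.15, and miR-30c-2* at 0.18, against a median of 0.82. On ischemia-reperfusion 2 their log2 levels exceeded the sham mean by 2.05, 2.20 and 1.88, beside 2.08 for miR-181b. The nearest miRNAs were chosen with that array included, so their closeness to the member there follows from the choice. miR-181d had more distant neighbours: miR-125a-5p, whose sequence is given above, at 0.27, miR-199a-3p at 0.34 and miR-338 at 0.51, against a median of 1.42. Above the sham mean on ischemia-reperfusion 2 these lay by 3.79, 2.82 and 3.21, beside 3.49 for miR-181d, and they too were chosen with that array included. In rank miR-181b was number 9 for miR-181d. The 3 members ranked thus had their nearest miRNAs outside the family, to which few of the 77 candidates of each belonged. miR-181c was not ranked. Likeness over 4 arrays was not repeated without ischemia-reperfusion 2.

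**Figure D5:**
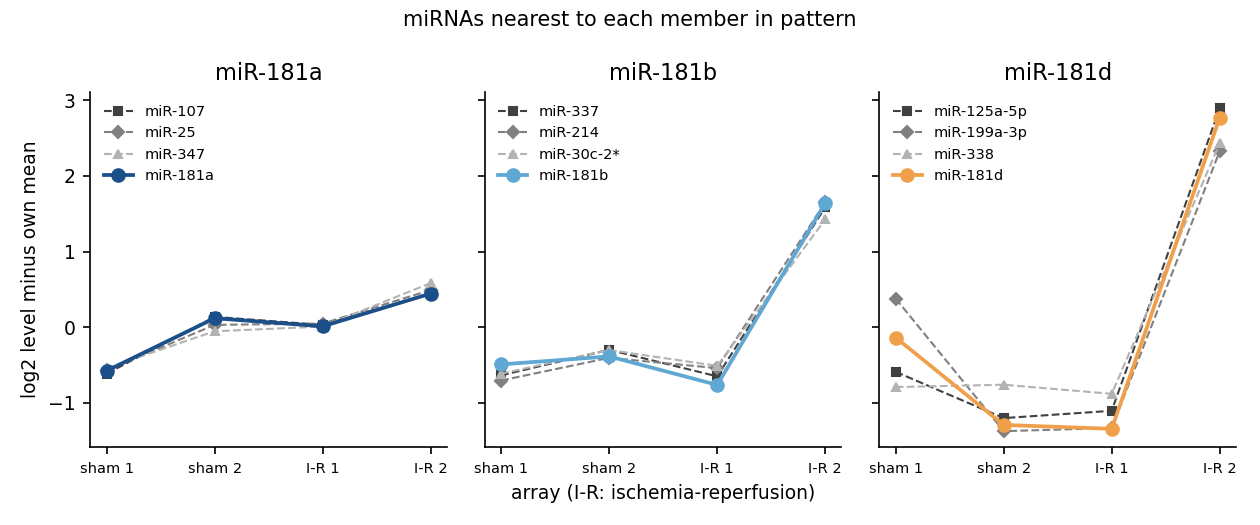
Log2 level minus the miRNA's own mean over the 4 arrays, for miR-181a, miR-181b and miR-181d (solid) and the 3 miRNAs nearest to each (dashed); the lines only guide the eye, since the arrays have no order. miR-107 follows miR-181a within 0.023 (root mean square), and miR-181d and its neighbours are high on ischemia-reperfusion 2. The neighbours were chosen from these same values.

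The cell types in which the family is best known were set beside it. Lymphocyte miRNAs (miR-150 and miR-342-3p) were both detected on the sham arrays and on ischemia-reperfusion 1 and neither on ischemia-reperfusion 2. Their summed level was 17.7% and 17.4% of the 75th percentile in the sham muscles, 22.3% on ischemia-reperfusion 1 and 9.22% on ischemia-reperfusion 2. miR-150, a miRNA of mature lymphocytes, gave 551, 189, 210 and −0.0748 units, and miR-342-3p gave 45.5, 14.9, 12.3 and 8.48 units. The last of these is below detection on the dimmest array, so it bounds the scaled level of miR-342-3p only loosely. Myeloid and pan-leukocyte miRNAs (miR-223, miR-142-3p and miR-142-5p) summed to 12.3% on sham 1, 407% on sham 2, 392% on ischemia-reperfusion 1 and 35.9% on ischemia-reperfusion 2, the same split of the arrays as in the contrast by sequence. Of the endothelial miRNAs, miR-126 and miR-126*, the summed level was 131%, 20.1%, 23.5% and 47.1%, lowest on sham 2 and ischemia-reperfusion 1. Red-cell miRNAs (miR-451 and miR-144) summed to 40.2%, 73.7%, 129% and 288%. On ischemia-reperfusion 2 only miR-451 was detected (264 units), and miR-144 gave 1.41 units. Their log2 differences, ischemia-reperfusion minus sham, were 1.97 for miR-451 and −0.80 for miR-144, the latter through its undetected value on ischemia-reperfusion 2. Without that array both were positive, at 1.31 for miR-451 and 0.82 for miR-144. Nerve miRNAs (miR-124, miR-9 and miR-128) summed to 22.0%, 17.3%, 17.4% and 1.13%. Of these only miR-128 was detected, and not on ischemia-reperfusion 2, where the sum holds undetected signal alone. The part of these cell types in the levels of the family was not tested.

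The family was set beside 19 other miRNAs of ischemia, inflammation and muscle differentiation. Of the 18 tested, limma called 0, with 10 positive and 8 negative log2 differences, a median of 0.33 and a range from −5.64 to 4.58. The 4 miR-181 members had 3 positive and 1 negative difference (2 and 2 in ischemia-reperfusion 1 alone) and a median of 0.67, beside 98 positive and 61 negative and a median of 0.45 over all tested miRNAs. In ischemia-reperfusion 1 alone the medians were 0.20 for the list, −0.042 for the family and 0.056 for all tested miRNAs. The list was described by its counts, without a set test.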

How the data were processed

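Total RNA from 4 gracilis samples was labelled with Cy3, per the labels' protocols, and, per the submitters' processing notes, Agilent Feature Extraction 9.5.3 read the arrays. The deposited values are, per the file headers, each miRNA's total signal intensity (background-subtracted, linear, not scaled between arrays), its scanner error and a detection flag. The deposited value table held the same intensities (0 of 1488 differed, tolerance 0), so it is linear, uncentred and without a direction; its column medians were 11.3, 7.60, 5.53 and 2.90 units. The array design, slides and dates of scanning are not given in the sources.

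Groups came from the sample titles. After 22 control features were left out, signals were divided by the 75th percentile, per array, of the 78 miRNAs that all 4 arrays detected. The lowest scaled signal of a detected miRNA (log2 −9.32) served as a floor before log2 was taken. The 159 miRNAs that both arrays of some group detected, all 4 members included, were tested with lmFit and eBayes of limma 3.58.1 (R 4.3.3). The test was two-sided, and p-values were adjusted by Benjamini-Hochberg over all of them, with a threshold of 0.05. The fit was tested on simulated data with a smaller spread within groups than these data have, so that test does not show how often changes would be found here. Scanner errors were carried to log2 values by dividing by signal and the natural log of 2, which is only rough for dim signals. The text gives values for the members, miR-181a*, the 3 miRNAs nearest in pattern to each member detected on all arrays, and at most the first 2 of each marker list. Members, lists and tests were chosen with earlier results of these data known. Alternatives were other scalings, filters, floors and moderation, the value table, a replicate block and leaving out each array.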

Additional observations from a re-analysis of the deposited data

How the results depend on the processing

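No miR-181 member passed the test under any alternative, including other filters, floors, the value table, an intensity trend and no moderation; the adjusted p of limma ran from 0.128 to 1. The number of miRNAs called was 0 in all alternatives but 2: it was 2 without scaling and 0 to 11 when an array was left out, the 11 without ischemia-reperfusion replicate 1. The difference of miR-181a turned to −0.31 with the 75th percentile of all miRNAs, −0.093 with the median, −0.32 with quantile normalization and −2.26 without scaling, that of miR-181b to −1.84 and that of miR-181d to −1.29 without scaling, and that of miR-181c to 0.46 with each array's own floor. The share of positive differences over all tested miRNAs was 61.6%, and 35.8%, 45.3%, 36.5% and 9.43% with these 4 scalings. The sign of miR-181a thus turned along with the median of all tested miRNAs, whereas of these scalings miR-181b and miR-181d turned only without scaling. The turn of miR-181c with the floor did not follow that median: it rests on its undetected value, and the median of all tested miRNAs was 0.54 there. When an array was left out, the differences ran from 0.11 to 0.80 for miR-181a, from −0.32 to 2.08 for miR-181b, from −0.85 to 0.71 for miR-181c and from −0.63 to 3.49 for miR-181d. Those of miR-181b and miR-181d turned negative without ischemia-reperfusion replicate 2, and that of miR-181c turned positive without that array (0.63) or sham replicate 2 (0.71); there the lone array of a group is assumed to vary like the other group. The contrast by gene cluster turned to 0.41 with quantile normalization and to 0.52 for miR-181a against miR-181c alone (−0.0056 with the undetected miR-181c at its array's limit), was −0.55 for miR-181b against miR-181d, −0.50 from summed signals, and ran from −0.11 to 0.085 when an array was left out (0.085 without sham replicate 2, 0.014 without ischemia-reperfusion replicate 1). The cause of these turns beyond scaling was not tested. The contrast by sequence ran from −2.83 to 0.91 when an array was left out.

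As far as the sources tell, same-numbered samples share only a number. Their deviations from the group means had a correlation of 0.097 over 159 miRNAs and −0.22 over the 78 detected on all arrays. With so few arrays this cannot show whether they are paired. With the replicate number as a block, 0 miRNAs were called (13 at an unadjusted p under 0.05), and the adjusted p of the members was 0.863 to 0.991; with the numbers crossed, chosen after seeing the data, 0 were called (2 unadjusted). miR-181c could not be tested among miRNAs detected on all 4 arrays. Signals near background limit miR-181d on sham 2 and both ischemia-reperfusion arrays, miR-181b on ischemia-reperfusion 2 (13.7 units, 4.95 times its error) and miR-181c on sham 1 and ischemia-reperfusion 2. On sham 1, miR-181d (62.2 units) was not far above the highest negative control (52.2 units).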
